A study of Mus musculus with 16 samples.

Results

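The 10 genes described here, Gm24525, Gm25202, Gm23928, Gm25581, Gm22126, Gm22739, Gm25587, Gm22456, Gm23100 and Gm25682, are predicted small nuclear RNA (snRNA) genes of the mouse. They were selected on their normalized read counts, which were higher in PS19 than in WT cortex, so their genotype difference is given as a description without a test. They make up 10 of the 703 snRNA genes, and of the 18488 features, in a small non-coding RNA sequencing table of 16 prefrontal cortex libraries. There were 8 libraries from PS19+/- mice and 8 from WT littermates, at about 9.6 months of age, each group with as many males as females per the methods of the study. PS19 mice are heterozygous for a human MAPT transgene with the P301S mutation under the mouse prion promoter, on a B6;C3 background that the WT littermates share. The transgene is expressed from that promoter in addition to the mouse tau gene, which both groups carry.

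The snRNAs are short, stable nuclear RNAs that, with their proteins, build the spliceosome. U1 pairs with the 5′ splice site of an intron, U2 pairs with the branch site, and U12 takes the place of U2 at the rare introns of the minor spliceosome. The mouse genome carries, beside the expressed snRNA genes, many near-copies left by retrotransposition and duplication, and a short read often matches several of them. Reads counted on a copy can therefore come from another gene of its family. How reads with several matches were assigned is not given in the sources used here. The named U1 genes Rnu1b1 and Rnu1b2 had identical values in every library, so such reads may be counted on each gene they match.

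By alignment to the named snRNA genes, Gm24525 was a U12 copy, Gm25202 was a U2 copy and the other 8 were U1 copies. Gm24525 lies at chr5:7177706-7177856 on the minus strand of GRCm38, in an intron of Zfp804b on the same strand. It is 151 bases long, as is Rnu12, the U12 gene, from which it differs by 6 substitutions: C11A, G16A, C31T, G113A, G137A and C150A, with positions counted from the first base of Rnu12. The longest run without a difference covers 81 bases, positions 32 to 112. A read from within that run carries nothing that tells the copy from Rnu12. Both sequences are shown 5′ to 3′ from the GENCODE M21 transcripts, with the differing bases in capitals.
Rnu12: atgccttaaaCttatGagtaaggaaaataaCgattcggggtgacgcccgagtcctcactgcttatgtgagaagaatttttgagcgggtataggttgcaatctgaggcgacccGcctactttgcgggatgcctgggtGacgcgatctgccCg
Gm24525: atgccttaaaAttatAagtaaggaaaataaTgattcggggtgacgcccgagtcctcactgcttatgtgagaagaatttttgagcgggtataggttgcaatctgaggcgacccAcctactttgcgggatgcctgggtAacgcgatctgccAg

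Gm25202 lies at chrX:14315401-14315591 on the minus strand, outside any other annotated gene. It is 191 bases long and differs from Rnu2-10, the named U2 gene, by 8 substitutions, among them C3T, T7C and C8G near the 5′ end. The longest run without a difference spans 52 bases, positions 89 to 140. The letters GTAGTA, which in U2 pair with the branch site, are present in Gm25202 and, on the RNA strand, in 32 of the 46 U2 genes in the table (69.6%). The differing bases are again in capitals.
Rnu2-10: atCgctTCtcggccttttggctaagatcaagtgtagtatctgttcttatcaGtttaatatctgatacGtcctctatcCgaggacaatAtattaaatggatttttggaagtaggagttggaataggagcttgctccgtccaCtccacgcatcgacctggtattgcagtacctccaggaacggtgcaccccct
Gm25202: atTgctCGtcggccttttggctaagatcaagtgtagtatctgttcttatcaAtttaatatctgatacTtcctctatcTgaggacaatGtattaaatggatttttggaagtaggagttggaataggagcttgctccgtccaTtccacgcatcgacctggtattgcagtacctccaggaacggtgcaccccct

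The 8 U1 copies were 125 to 166 bases long and had 78.5% to 97.1% identity with Rnu1a1 or Rnu1b1 over the part that aligned. Of these, 5 overlap a longer gene. Gm23928 lies in an intron of Dlg2 on the opposite strand, Gm22126 and Gm22739 lie in introns of Cdyl and Ccdc170 on the same strand, and Gm23100 lies opposite an exon of the antisense RNA 1600010M07Rik. Gm25682 lies in an intron of the long non-coding RNA Gm28905 and opposite an exon of Gm48281. Gm25581, Gm25587 and Gm22456 overlap no other annotated gene. The letters CTTACCT, with which the 5′ end of U1 pairs with the 5′ splice site, were found in 3 of the 8, Gm25581, Gm25587 and Gm23100, and in 54 of the 128 U1 genes in the table (42.2%).

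A window of each U1 copy is shown because the copies fell into 2 sets by their values, described below. The stretch of a set is the longest run of bases common to its copies, looked for after the sets were formed. Any group of these copies would share some stretch, so the stretches are not separate evidence for the sets. All 8 hold 14 identical bases, positions 118 to 131 of Rnu1a1. In Gm25587, Gm22456, Gm23100 and Gm25682 (set A) the shared stretch runs on towards the 5′ end, to 23 bases, positions 109 to 131. In Gm25581, Gm22126 and Gm22739 (set B) it runs on towards the 3′ end, to 29 bases, positions 118 to 146. Capitals mark the stretch of set A, that of set B, the 14 common bases in Gm23928, and the bases of both set stretches in Rnu1a1, which holds both.
Rnu1a1: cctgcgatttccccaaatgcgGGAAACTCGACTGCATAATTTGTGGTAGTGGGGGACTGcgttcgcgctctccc
Gm25587: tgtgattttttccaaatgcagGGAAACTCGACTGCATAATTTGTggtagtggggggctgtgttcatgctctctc
Gm22456: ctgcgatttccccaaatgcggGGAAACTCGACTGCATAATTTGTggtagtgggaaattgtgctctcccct
Gm23100: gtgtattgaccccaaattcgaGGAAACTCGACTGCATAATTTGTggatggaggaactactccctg
Gm25682: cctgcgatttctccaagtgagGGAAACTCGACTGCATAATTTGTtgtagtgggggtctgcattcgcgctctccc
Gm25581: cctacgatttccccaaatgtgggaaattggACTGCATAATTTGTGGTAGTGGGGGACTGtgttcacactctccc
Gm22126: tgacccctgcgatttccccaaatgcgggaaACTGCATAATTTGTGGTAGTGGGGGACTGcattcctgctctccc
Gm22739: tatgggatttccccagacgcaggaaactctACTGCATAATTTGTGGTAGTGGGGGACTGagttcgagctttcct
Gm23928: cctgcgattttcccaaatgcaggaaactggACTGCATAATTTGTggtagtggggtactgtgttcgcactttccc

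**Figure D1:**
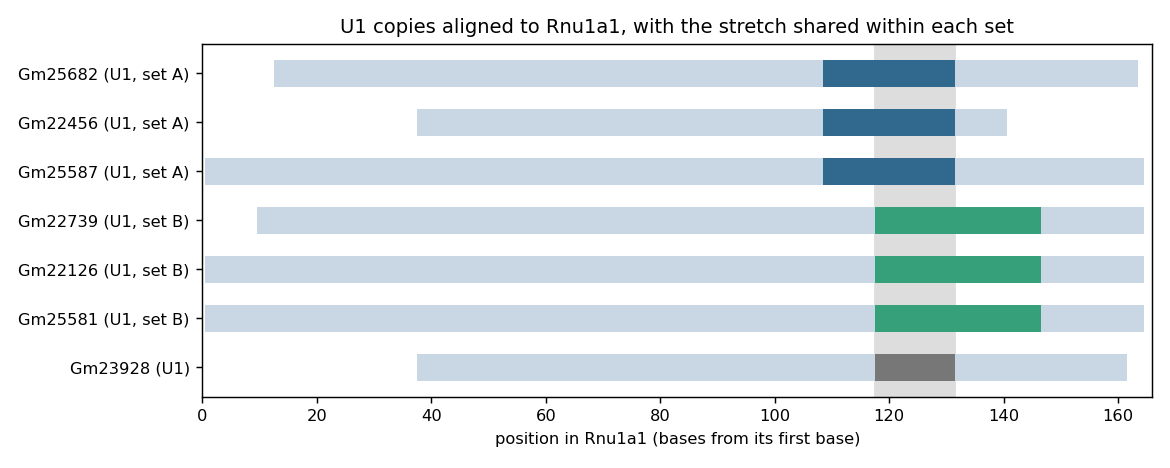
The 7 U1 copies that aligned best to Rnu1a1 (Gm23100 aligned best to Rnu1b1), each drawn as a pale bar over the bases of Rnu1a1 it matches, with position in bases on the x axis. Dark blue marks the 23 bases shared by set A, green the 29 bases shared by set B, and the grey band the 14 bases that all 8 copies hold.

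All 10 copies passed the filter on low values, which asked for a mean of 5 or more. Values are normalized read counts, that is, reads divided by a size factor for each library. Depth was 13187096 to 23058568 recovered reads per library, and 20 to 2432 reads lay behind a single value of a copy. The lowest was in Gm25581, and Gm23928 had the lowest mean value. Every within-group pair of libraries (56 pairs) differed by more than sampling noise, at a chi-square per degree of freedom of 43.5 to 569.9, and none was taken for a duplicate. The summed brain miRNAs of neurons (miR-124-3p, miR-128-3p, miR-9-5p and miR-132-3p) lay between 301680 and 1041610 (PS19) or 346368 and 965908 (WT), and all 4 were detected. The summed miRNAs listed for microglia lay between 570 and 3009 (PS19) or 432 and 1536 (WT), those of oligodendrocytes between 30.7 and 123 or 29.7 and 121, those of the vessel wall between 15206 and 61634 or 17840 and 60601, and those of red blood cells between 5.69 and 41.1 or 1.90 and 29.9. The liver and muscle miRNAs, listed as foreign to cortex, were at 2683 to 14916 or 2999 to 10899.6. The part of these cell types in the values below was not tested. In bulk tissue, fewer cells of a type and less RNA per cell cannot be told apart.

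Levels per 100 bases of length are given for each genotype (mean ± SD in normalized reads, n = 8). Gm25202 had the highest level, 705 ± 231 in PS19 and 432 ± 77.4 in WT. The 4 copies of set A lay between 231 ± 59.4 (Gm25587) and 331 ± 72.5 (Gm25682) in PS19, and between 156 ± 35.9 and 245 ± 39.5, for the same copies, in WT. Gm24525, at 265 ± 193, fell among them in PS19, while in WT, at 94.7 ± 17.2, it was below them. Set B and Gm23928 were lower, from 33.4 ± 4.75 (Gm23928) to 59.4 ± 16.6 (Gm22126) in PS19 and from 20.9 ± 9.28 (Gm25581) to 39.0 ± 10.6 (Gm22126) in WT. Neighbours in the order overlapped within mean ± SD inside set A and inside the low group, in both genotypes.

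Gm24525, the U12 copy, had the largest genotype difference of the 10. Its normalized read count was 179.7 at the lowest, 236 at the median and 1027 at the highest in PS19. In WT it was 108 at the lowest, 141 at the median and 177 at the highest. Every PS19 library lay above every WT library, but the PS19 libraries were far from even: replicates 3, 7 and 4, at 1027, 607 and 449, stood above the other 5, which lay between 179.7 and 236. The mean was 2.80 times that of WT, and the log2 difference was 1.24 ± 0.32 (SE, n = 8 and 8). Without PS19 replicate 3 the log2 difference was 1.01.

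Rnu12 itself gave the value against which the copy can be read. Its normalized read count was 337, 458 and 1205 (lowest, median and highest) in PS19 and 267, 344 and 381 in WT, and it was high in the same PS19 libraries, replicates 3, 7 and 4. Subtracting Gm24525 from Rnu12 in each library left 127 to 228 in PS19, with a median of 181, and 138 to 220 in WT, with a median of 203, so the remainders of the genotypes overlapped. As a share of Rnu12, Gm24525 was 50.8% to 85.2% in PS19 and 35.6% to 49.4% in WT. Whether each read counted on Gm24525 was also counted on Rnu12 was not tested. In the fit over all tested features, Rnu12 had a log2 difference of 0.66 ± 0.24 (limma, unadjusted p = 0.0109, adjusted p = 0.9998). That row was not independent of the copy, since the deviations of Rnu12 and Gm24525 from their genotype means had r = 0.96 over 16 libraries.

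**Figure D2:**
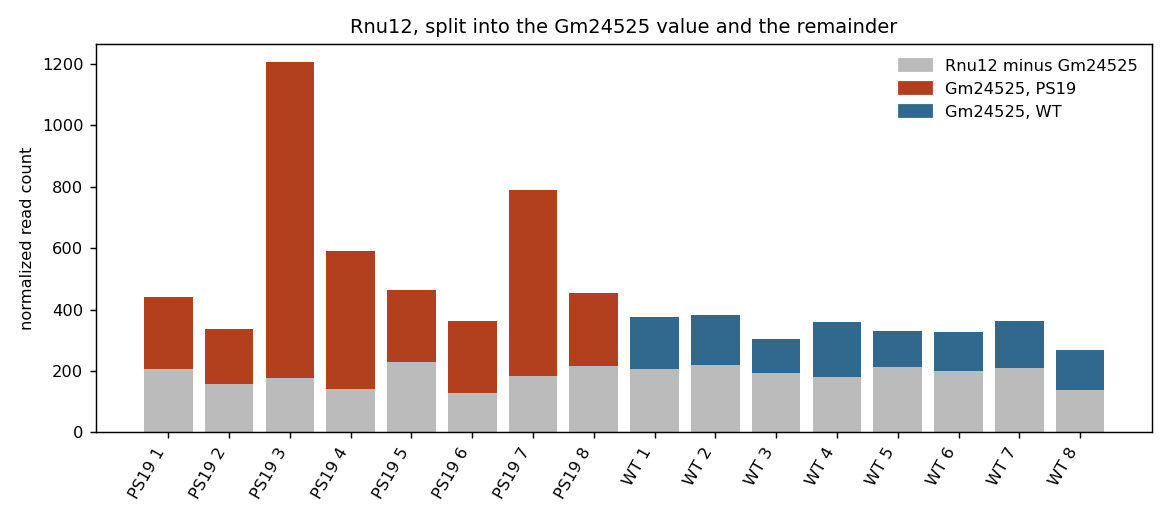
Normalized read count of Rnu12 in each library (bar height), split into the value of the U12 copy Gm24525 (red in PS19, blue in WT) and the remainder (grey). The grey part is 127 to 228 tall in PS19 and 138 to 220 in WT, while the coloured part reaches 1027 in PS19 replicate 3.

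Gm25202, the U2 copy, was read at 864, 1252 and 2050 in PS19 and at 659, 777 and 1062 in WT (lowest, median and highest normalized read count). The groups overlapped, with 6 of 8 PS19 libraries above the highest WT library. Its ratio of means was 1.63 and its log2 difference 0.66 ± 0.19 (SE, n = 8 and 8). Replicates 4, 3 and 7 were the highest PS19 libraries, the same 3 as for Gm24525 in another order. As a share of Rnu2-10, it was 21.9% to 51.9% in PS19 and 18.2% to 32.2% in WT. The remainder of Rnu2-10 after subtraction was 1901 to 3128 (median 2468) in PS19 and 1964 to 3622 (median 2454) in WT. Whether the reads counted on Gm25202 were also counted on Rnu2-10 was not tested. The deviations of the 2 from their genotype means had r = 0.50.

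Gm23928 was the other copy whose groups did not overlap. Its normalized read count was 41.1, 47.3 and 62.2 in PS19 and 19.8, 33.1 and 38.4 in WT (lowest, median and highest). The log2 difference was 0.65 ± 0.14 (SE, n = 8 and 8). Over all 6024 features tested, every PS19 library lay above every WT library in 0.0996%, and Gm24525 and Gm23928 are 2 of those. Since the 10 were listed for this contrast, nothing is read from that count.

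In set A, the 4 U1 copies had similar levels and similar differences. Gm25682 was read at 361, 518 and 731 in PS19 and 319, 382 and 516 in WT. Gm22456 was read at 251, 396 and 573 in PS19 and 195, 275 and 401 in WT. In both genotypes replicate 1 was the highest library of each of the 4 and the groups overlapped, with 4 PS19 libraries above the highest WT library. Gm25587 (258, 380 and 543 against 184, 259 and 377) and Gm23100 (203, 353 and 521 against 169, 249 and 363) were alike, and PS19 replicate 7 was the lowest PS19 library for all 4. The log2 differences were 0.55 for Gm25587, 0.51 for Gm22456, 0.50 for Gm23100 and 0.42 for Gm25682, the smallest of the 10.

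In set B, the 3 U1 copies were read at lower levels and were high in other libraries. Gm22126 was read at 58.2, 75.0 and 123 in PS19 and 39.2, 51.2 and 88.1 in WT. Gm22739 was read at 62.2, 72.5 and 113 in PS19 and 36.8, 54.4 and 85.5 in WT. Replicate 3 was the highest library in both genotypes, and 3 PS19 libraries lay above the highest WT library for each of the 3. Gm25581 was read at 31.3, 53.9 and 94.0 in PS19 and 20.01, 28.9 and 68.4 in WT, and its log2 difference was 0.79 ± 0.27 (SE, n = 8 and 8). For Gm22126 and Gm22739 the log2 differences were 0.59 and 0.54. The sum over the 10 copies, 1.61% to 4.49% of the snRNA signal of a library, had a mean of 3704 ± 779 in PS19 and 2331 ± 405 in WT (SD, n = 8 each).

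**Figure D3:**
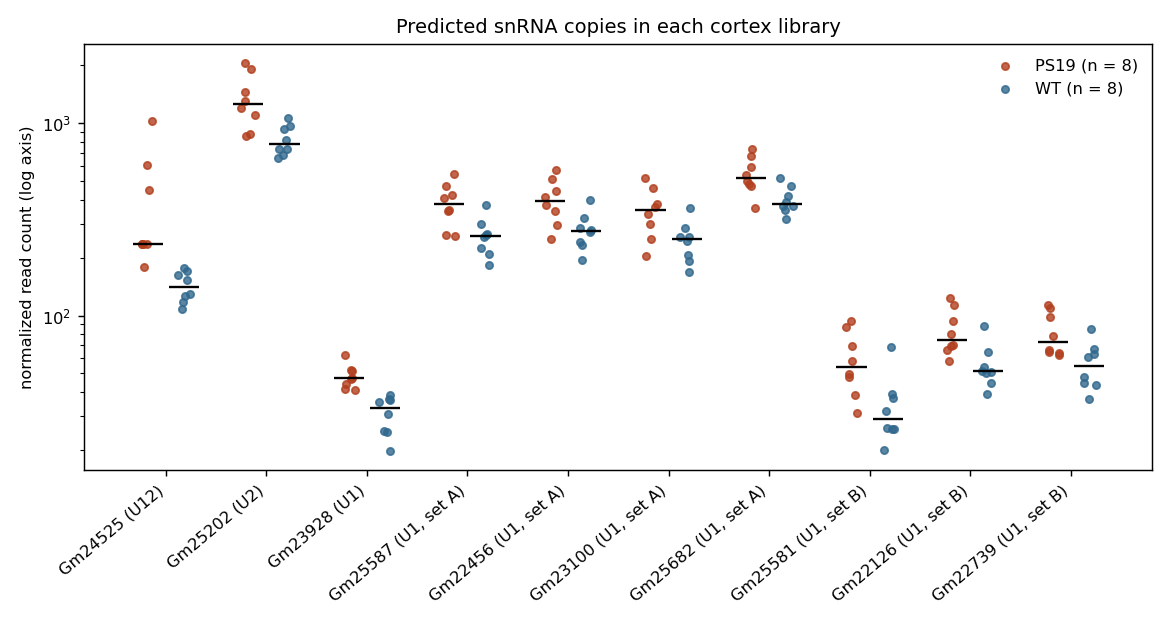
Normalized read count (log axis) of the 10 predicted snRNA copies in each of 8 PS19 (red) and 8 WT (blue) cortex libraries, 1 point per library and a bar at the median. The 2 colours do not overlap for Gm24525 and Gm23928, and overlap for the other 8.

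The labels give each library a code that starts with G for all 8 PS19 libraries and WT replicates 2 and 4, with F for 4 WT libraries and with A for 2, and what the letter stands for is not stated. Among the G libraries alone, chosen as a comparison after the values were seen, all 10 copies were higher in PS19, by 0.25 to 0.98 on the log2 scale, against 0.42 to 1.24 over all libraries. All 8 PS19 libraries lay above both WT libraries of code G for Gm24525 and Gm23928, and 4 to 7 did for the other copies. These are libraries on which the 10 were selected, so the direction follows in part from the selection, and the part of the letter in the genotype difference was not tested.

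The copies were then compared with each other, on deviations from the genotype means, which takes out the contrast by which they were listed. Of the 45 pairs, 13 had a correlation over the 16 libraries at an adjusted p below 0.05 (permutation test within genotype, 100000 resamples, two-sided), all positive, and 12 had one by Spearman's rho. Grouping copies at r of 0.8 or more gave the sets A and B, and left Gm24525, Gm25202 and Gm23928 single. The sets were formed on these correlations, so what follows describes them.

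Within set A, Pearson's r was 0.88 to 0.995 over its 6 pairs (highest adjusted permutation p 2.25e-04). Spearman's rho was 0.90 to 0.997 (highest adjusted permutation p 3.21e-04), and r was 0.81 to 0.99 after the 2 libraries farthest from the median were left out of each pair. Within set B it was 0.87 to 0.90 over 3 pairs (highest adjusted permutation p 3.5e-04), rho was 0.79 to 0.89 (0.00315), and r was 0.75 to 0.83 with 2 libraries left out in the same way. Between the sets, r was -0.19 to 0.20 over 12 pairs and none passed (adjusted permutation p 0.686 to 0.926), nor did rho, at -0.20 to 0.27. Of the 8 U1 copies, 7 thus fell into the 2 sets, between which no relation was detected, and Gm23928 was in neither. By genotype, r between the sets was -0.37 to 0.03 in PS19 and 0.10 to 0.42 in WT. Copies of a set may share reads, so they are not taken as separate RNAs that move together. How many reads they share was not tested.

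Gm25202, the U2 copy, moved with copies of the other families. Its r was 0.74 with Gm24525 (adjusted permutation p 0.0216), 0.68 with Gm25581, 0.67 with Gm22126 and 0.69 with Gm22739. By Spearman's rho, Gm22126 did not pass (rho = 0.60, adjusted permutation p = 0.074). Without the 2 libraries farthest from the median, r was 0.76 with Gm24525 and fell to 0.49, 0.39 and 0.51 with the 3 copies of set B. As a description within each genotype, with 8 libraries each, in WT r was 0.45 with Gm24525, 0.53 to 0.57 with set B and 0.80 to 0.82 with set A, and in PS19 it was 0.81 with Gm24525, 0.75 to 0.83 with set B and -0.13 to 0.17 with set A. Whether these differ between genotypes was not tested. By Pearson's r over all 16, these were the only 4 of 24 pairs with a single copy that passed. Gm23928 passed with none of the other 9.

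**Figure D4:**
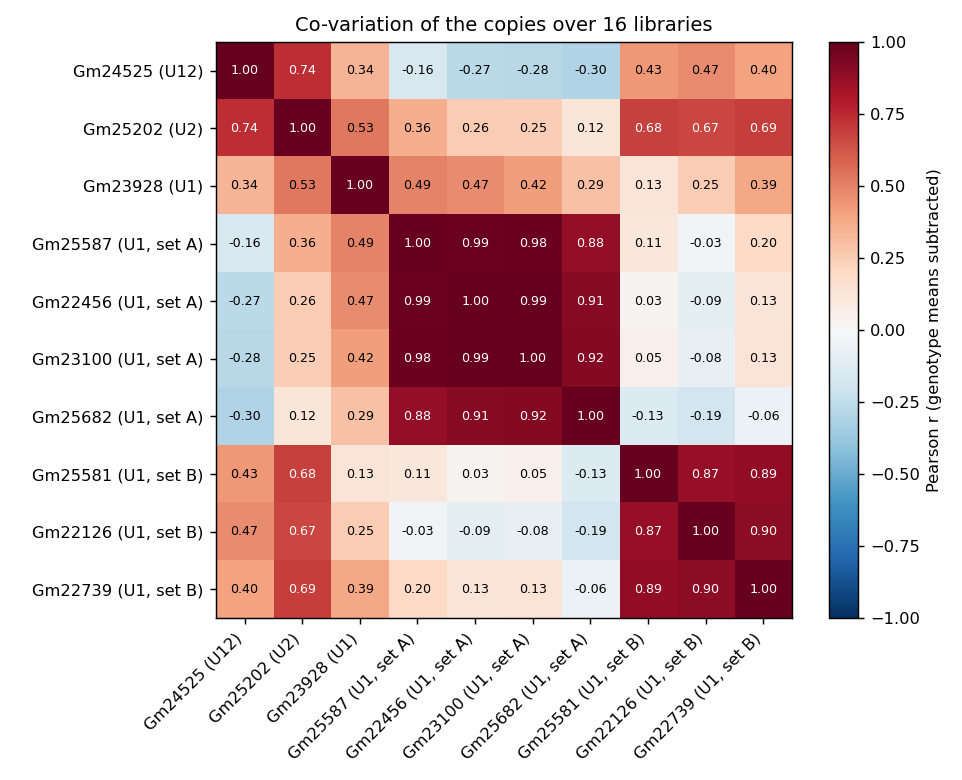
Pearson r between the copies over 16 libraries, on log2(value + 1) with the genotype means subtracted, red for positive and blue for negative. Set A (r of 0.88 or more) and set B (0.87 or more) stand as 2 dark blocks with pale cells between them, and the row of Gm25202 is dark towards Gm24525 and set B.

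The libraries in which each group was high differed. For the mean of set A they were PS19 replicates 1, 6 and 5, at 1.04, 0.87 and 0.67 above the WT mean on the log2 scale, while PS19 replicate 7 lay below it, at -0.12. For the mean of set B they were PS19 replicates 3, 4 and 5, at 1.25, 1.16 and 0.91. In Gm24525, replicates 3 and 7 were at 2.86 and 2.10. The high WT library was replicate 1 for set A (0.52) and replicate 3 for set B (0.80).

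**Figure D5:**
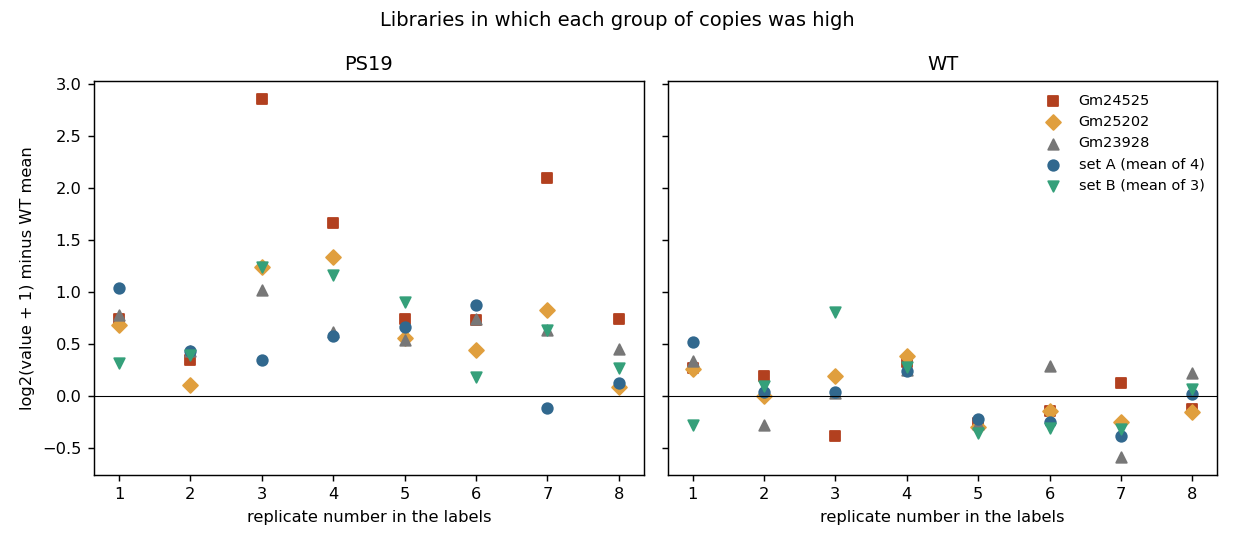
Difference from the WT mean, on the log2(value + 1) scale, of set A, set B and the 3 single copies in each PS19 (left) and WT (right) library, by the replicate number in the labels. Set A is highest in replicate 1 of both genotypes and set B in replicate 3 of both, while Gm24525 reaches 2.86 in PS19 replicate 3.

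The size factor was compared with each group. A single read was worth 0.595 to 1.46 normalized reads, depending on the library, and over 16 libraries the deviations of set A had r = 0.72 with its logarithm (adjusted permutation p = 0.0165 over 5 profiles; rho = 0.60, adjusted permutation p = 0.059), and r = 0.50 without PS19 replicates 1 and 7. Gm23928 had r = 0.57 (adjusted permutation p = 0.0165; rho = 0.54, adjusted permutation p = 0.059), and 0.72 without those libraries. For set B, Gm24525 and Gm25202 r was 0.14, 0.10 and 0.38, with adjusted permutation p of 0.785, 0.788 and 0.388. Without PS19 replicates 1 and 7 their r was 0.31, 0.59 and 0.62. With those libraries left out, set A thus lay above set B but below Gm24525 and Gm25202. Differences between these correlations were not tested. The mean worth of a read was 1.04 in PS19 and 0.953 in WT, and its part in the genotype difference was not tested.

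The shared stretches were then looked up in the U1 genes that are not among the 10. Of the 52 such genes that were tested, 23 hold the 23 bases of set A and 20 hold the 29 bases of set B. Over all 128 U1 genes of the table, the 8 copies included, the shares were 21.1% and 17.97%. The stretch of set A without that of set B was found in 4 tested genes, Gm25514, Gm24830, Gm26232 and Rnu1b6, of which the last 3 had identical values. They had r of 0.79 to 0.92 with the mean of set A and of -0.04 to -0.01 with that of set B. The stretch of set B without that of set A was found in 1, Gm22155, with r = 0.85 with set B and 0.36 with set A. In the 19 genes that hold both stretches, the median r was -0.07 with set A (-0.26 to 0.80) and -0.14 with set B (-0.20 to 0.12). In the 28 with neither it was 0.32 with set A (-0.30 to 0.96) and 0.10 with set B (-0.35 to 0.83). The stretches therefore did not mark all genes that moved with a set. Among genes with neither stretch, Gm26146 and Gm26264 had r = 0.96 and 0.89 with set A, and Gm23376 had r = 0.83 with set B.

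Outside the 10, the feature most like each copy over the 16 libraries was mostly another gene of its family. Each such feature was picked for the highest r among all tested features, which favours high values, and these r were not tested. Rnu12 was nearest to Gm24525 (r = 0.96), Gm26146 to Gm25587, Gm22456 and Gm23100 (0.96 to 0.98), Gm25514 to Gm25682 (0.93), Gm23376 to Gm25581 (0.87), and Gm22155 to Gm22126 and Gm22739 (0.79 and 0.80). For Gm25202 it was a microRNA, miR-34c-3p (0.81), and the nearest U2 gene, Gm25813, had r = 0.54. For Gm23928 it was also a microRNA, miR-339-5p (0.82), ahead of the nearest U1 gene, Gm25280 (0.65). No other feature had values identical to those of any of the 10. With Rnu1a1, the 8 U1 copies had r of -0.33 to 0.12.

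The named snRNA genes, which hold the reference sequences of the families, gave 1 call by genotype. Of 9 that were tested, 1 was higher at an unadjusted p below 0.05 (Rnu12, above) and none was lower, beside 1.86% of all 6024 features higher and 2.14% lower in the same limma fit, and none passed an adjusted p. Over all features, no adjusted p passed 0.05 with limma, 241 passed unadjusted, and DESeq2 on recovered reads gave 15 at an adjusted p. Rnu1a1 and the pair Rnu1b1 and Rnu1b2, which had identical values, are U1 genes and had log2 differences of -0.03 and 0.08 (limma, unadjusted p = 0.858 and 0.661). Rnu1b6, another U1 gene, was at 0.30 (0.104). Rnu2-10 was at 0.21 (0.21), Rnu5g, a U5 gene of the spliceosome core, at -0.14 (0.425), Rnu11, which pairs with the 5′ splice site in the minor spliceosome, at -0.14 (0.515), and Rnu7, which acts in histone mRNA 3′ end processing, at -0.11 (0.642). Rnu6-ps2, a U6 pseudogene, had 0 to 4.34 normalized reads and was not tested.

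Of the other 99 predicted snRNA genes that were tested, 66 had a positive log2 difference, beside 2819 of all 6024 features. The median over the 99 was 0.13, against -0.02 over all features. A single one, Gm26146, passed an unadjusted p below 0.05 and was higher, by 0.48 ± 0.22 (limma, unadjusted p = 0.0449, adjusted p = 0.9998). That is 1.01% of the 99 beside the 1.86% over all features. Leaving out 1 library changed this count of higher calls in 10 cases. It became 0 without PS19 replicate 1, 2 or 5, 2 without PS19 replicate 4 or 6, and 3 without WT replicate 3. It became 4 without PS19 replicate 7, 5 without PS19 replicate 8 or WT replicate 1, and 6 without WT replicate 4. There was 1 lower call without PS19 replicate 1 and without WT replicate 2, 3 or 6. DESeq2 on recovered reads gave 6 of the 99 (6.06%) beside 2.34% of all features, so that the share lay below that of all features in the limma fit and above it by DESeq2. By family, 29 of 48 U1 genes were higher (median 0.08), as were 30 of 31 U2 genes (median 0.15), and none of the 9 U5 genes. A short read can match several genes of a family, so these are not taken as separate observations. The smallest difference among the 10 was 0.42 and 7 of the 99 had at least that, up to 0.87 in Gm22970, a U2 copy with a mean of 5.99 normalized reads. The next below was at 0.41.

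Summed without the 10 copies, each of the 7 snRNA families was compared between genotypes by a two-sided exact permutation test. The U12 sum, 639 ± 293 in PS19 and 382 ± 44.99 in WT (SD, n = 8 each), was higher by 0.64 on the log2 scale (exact permutation p = 0.00311, adjusted p = 0.0218 over the 7), with 7 of 8 PS19 libraries higher than the median WT library. Most of this sum was Rnu12, at a mean of 580 in PS19 and 338 in WT. Rnu12 moved with Gm24525, so the U12 sum is not a separate observation of that copy. Scaling to the library total gave 0.66 (exact permutation adjusted p = 0.0957) and to the snRNA total 0.55 (exact permutation adjusted p = 0.0696). Leaving out WT replicates 3, 5, 6 or 8 gave 0.59 to 0.64 (exact permutation adjusted p 0.0511 to 0.0664). The U2 sum was higher by 0.16 (exact permutation adjusted p = 0.501), and the other 5 families had an adjusted p of 0.893 by the same exact test.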

How the data were processed

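Small RNA libraries of prefrontal cortex, from 8 PS19 mice and 8 WT mice, were analysed, grouped by the genotype in the labels. As stated in the methods of the study, reads were aligned by the authors with STAR 2.5.3a and COMPSRA 1.0.3, and compared genotypes with DESeq2 1.42.1. The submitters' processing notes name the build mm10. The deposited values were a normalized signal: for each library the authors divided the reads per feature by a size factor, and 100% of values were whole multiples of the value of 1 read (tolerance 0.001). In WT replicates 4 and 6 that value was near 1, which is weaker evidence. The deposited log2 fold changes, Wald score and p-values of the authors were not used.

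Values were transformed as log2(value + 1), which understates the change of low features. Features with a mean of at least 5 were fitted with limma 3.58.1 (trend, genotype only) in R 4.3.3, with Benjamini-Hochberg adjustment over all 6024. P-values measure the spread between these libraries. The fit was tested on simulated data. Co-variation was tested by permutation in Python 3.11.15. Sequences, positions and biotypes came from GENCODE M21 (GRCm38), and each snRNA gene was given the family of its best match among named genes with blastn 2.17.0 (e-value at most 1e-05). The 10 genes, the marker lists and the tests were chosen with earlier results of these data known. All 10 are named, with every named snRNA gene, the other predicted snRNA genes called, and the feature nearest to each copy. The genes holding only 1 of the stretches, and Gm22970, Gm25813, Gm25280 and Gm26264, were named after their values were seen. Alternatives were scaling to library or snRNA total, DESeq2 1.42.0 and edgeR 4.0.16 on recovered reads, other filters and pseudocounts, a replicate block, and leaving out each library. A comparison of the G libraries only was added after the data were seen.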

Additional observations from a re-analysis of the deposited data

Results flagged for a closer look

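Among 56 group values tested for a library far from the others, 3 stood out, where chance at about 1 in 20 would give 2.8. Gm25581 was at 68.4 normalized reads in WT replicate 3, and the next WT library was at 39.2, a gap of 0.603 of the range of the group. PS19 replicate 7 had 22600000 recovered reads, the next PS19 library 18000000 (gap 0.546 of the range). The U2 sum without the copy Gm25202 was 63900 in WT replicate 4 and 48100 in the next WT library (gap 0.605 of the range).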

How the results depend on the processing

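The log2 differences of the 10 copies stayed between 0.25 and 1.54 over 240 pairs of copy and alternative setting, all in the same direction. The copies were selected for this direction in these libraries, so nothing is read from its being kept. The replicate block cannot move the difference, because each replicate number occurs in both genotypes. Over all features, 241 passed an unadjusted p below 0.05, and 680 did without a filter, 136 at a mean of at least 20, 419 with the replicate number as a block, and 167 to 322 with 1 library left out. At an adjusted p, DESeq2 gave 15 and leaving out a library 0. For the other predicted snRNA genes, 1 higher call became 3 by library total, 6 by DESeq2 and 2 by edgeR. Without a filter there were 10 higher and 12 lower calls, over 499 genes. A mean of at least 20 gave 3 higher calls, and a pseudocount of 5 gave 3. The replicate block gave 5 higher calls and 1 lower. With 1 library left out there were 0 to 6 higher calls and 0 or 1 lower. The share of higher calls, beside that of all features, was 3.03% and 1.76% by library total, 6.06% and 2.34% by DESeq2, 2.02% and 2.49% by edgeR, 2% and 1.9% without a filter, 3.9% and 2.51% at a mean of at least 20, 3.03% and 1.93% with a pseudocount of 5, and 5.05% and 3.07% with the block. For the named snRNA genes, DESeq2 gave 2. The U12 sum (log2 0.64, exact test) no longer passed by library total (0.6637), by snRNA total (0.5476) and with the replicate block (0.6397, adjusted p = 0.109), and was 0.4828 to 0.7298 with 1 library left out. The U1 sum turned to -0.07359 by snRNA total and ran from -0.06281 to 0.1008 with 1 library left out. Those of U11 and U6 ran from -0.1259 to 0.02021 and from -0.1964 to 0.04756. The pairs of copies that passed were 10 to 15 with 1 library left out. The cause was not tested. The labels do not say that a replicate number marks a shared litter or batch, and the numbers were not taken to pair the libraries: same-numbered libraries had correlations of 0.04 to 0.46, all positive, of which 6 of 8 were over 0.1, and a library correlated best with its own number in 2 of 8. Depth limits the copies with few reads, where the lowest value rests on 20 reads.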
